A study of Mus musculus with 10 samples.

Results

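The genes described here are 33 genes of the Fanconi pathway and of the neighbouring DNA repair and checkpoint pathways. They were taken by name from a list of such genes, and all 33 were present among the 17404 genes of the deposited count table and among the 16725 genes tested. Long-term haematopoietic stem cells (LT-HSCs), the blood stem cells that sustain all lineages over life, were sorted as CD150+ cells from mouse fetal livers at E14.5, in mid-gestation. 6 libraries came from KO embryos (Tnfrsf11aCre/+; Spi1f/f) and 4 from WT littermates (Tnfrsf11a+/+; Spi1f/f), all on a C57BL/6 background and all with both Spi1 alleles floxed. In KO embryos the Cre recombinase is driven from Tnfrsf11a, a gene of macrophage precursors. Spi1, a transcription factor needed to make macrophages, is thereby removed from that lineage, and the fetal liver is depleted of most macrophages. The comparison asks how stem cells differ in a liver depleted of these niche cells. Each library is bulk RNA amplified by SmartSeq2, and p-values weigh the difference between genotypes against the spread between these 10 libraries. The labels give neither litter nor sex, so how these fall across the genotypes is not known.

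The Fanconi pathway removes crosslinks between DNA strands. A core complex that holds the ubiquitin ligase Fancl, brought to DNA by Fancm, attaches ubiquitin to the pair Fancd2 and Fanci, after which nucleases cut out the crosslink and homologous recombination with Brca1, Brca2 and Palb2 restores the broken strand. Blood stem cells depend on this pathway, and inherited loss of its genes causes Fanconi anaemia, in which the stem cell pool fails. The other groups cover break sensing and checkpoint kinases, end joining (which ligates broken ends without a template), repair of single-strand breaks and bases, and mismatch repair.

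Between 5315435 and 30941726 counts per KO library and between 7633446 and 18256010 per WT library lay on genes, and the 33 genes took 0.133% to 0.17% of them in KO and 0.103% to 0.175% in WT. Spi1 was present in both groups, at 60.6 ± 31.1 normalized CPM (counts scaled to library size by the TMM method, SD, n = 6) in KO and 24.4 ± 21.3 (SD, n = 4) in WT, and the difference did not pass (log2 fold change 1.31 ± 0.69 SE, adjusted p = 0.337). Of 14 stem cell markers, 5 were called higher in KO (Cd34, Hlf, Mecom, Prdm16 and Hoxa9), where 1.32% of all genes were. The summed level of all 14 lay between 806 and 1980 CPM in KO libraries and between 649 and 803 CPM in WT libraries. Macrophage markers summed to 53.2 to 165 CPM in KO and 45.7 to 305 CPM in WT, with Marco called lower and at 0 counts in every KO library, and the median log2 fold change of the 11 tested was -1.17. Of 7 erythroblast markers tested 1 was called lower, Epor, with a median of -1.50 over the 7, where 2.67% of all genes were called lower. Summed levels of the markers of erythroblasts (202 to 2279 CPM in KO, 225 to 6424 CPM in WT), granulocytes (12.6 to 1322 and 6.07 to 2163), megakaryocytes (160 to 3294 and 185 to 1139), hepatoblasts (95.2 to 8416 and 253 to 5773) and endothelium (1563 to 7698 and 662 to 5109) varied widely within both groups. Their part in the values of the repair genes was not tested, and in bulk RNA fewer cells with a transcript and less transcript per cell cannot be told apart.

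None of the 33 repair genes passed the test in either direction. By edgeR's quasi-likelihood test, with p-values adjusted over all 16725 genes by the Benjamini-Hochberg method and a threshold of 0.1, 0 of 33 were higher in KO and 0 of 33 lower, where 1.32% of all genes were called higher and 2.67% lower. The smallest adjusted p among them was 0.118, for Xrcc6. At an unadjusted p below 0.05 stood 2 of the 33, Brca2 (higher) and Xrcc6 (lower), against 18.8% of all genes. DESeq2 with the fold-change threshold of the study also called 0 of 33 (4.1% of genes higher, 3.86% lower), whereas DESeq2 without that threshold called Brca2 higher (adjusted p = 0.0794) and Xrcc6 lower (adjusted p = 0.0561), at 6.84% and 7.85% of genes. 12 of the 33 had a positive log2 fold change and 21 a negative one, with a median of -0.09, where 53.1% of all genes were positive and the median was 0.06. Without WT replicate 1 the median was 0.07 and 18 of 33 were positive, so the lean depended on that library. It was read on TMM-normalized counts, and the TPM scale described below gave the other direction for some of these genes.

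The width of the intervals shows what these libraries could resolve. For 20 of the 33 genes the 95% interval of the fold change lay within 2-fold in both directions, as it did for 26.6% of all genes. The narrowest intervals belonged to abundant genes, such as Parp1, from -0.46 to 0.27 on the log2 scale. The widest belonged to Lig4, the ligase of end joining, from -1.91 to 0.71, and to Fancf, from -1.73 to 0.53, both with under 10 CPM in every library. For the other 13 genes a change of more than 2-fold in one direction or the other was within the interval.

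**Figure D1:**
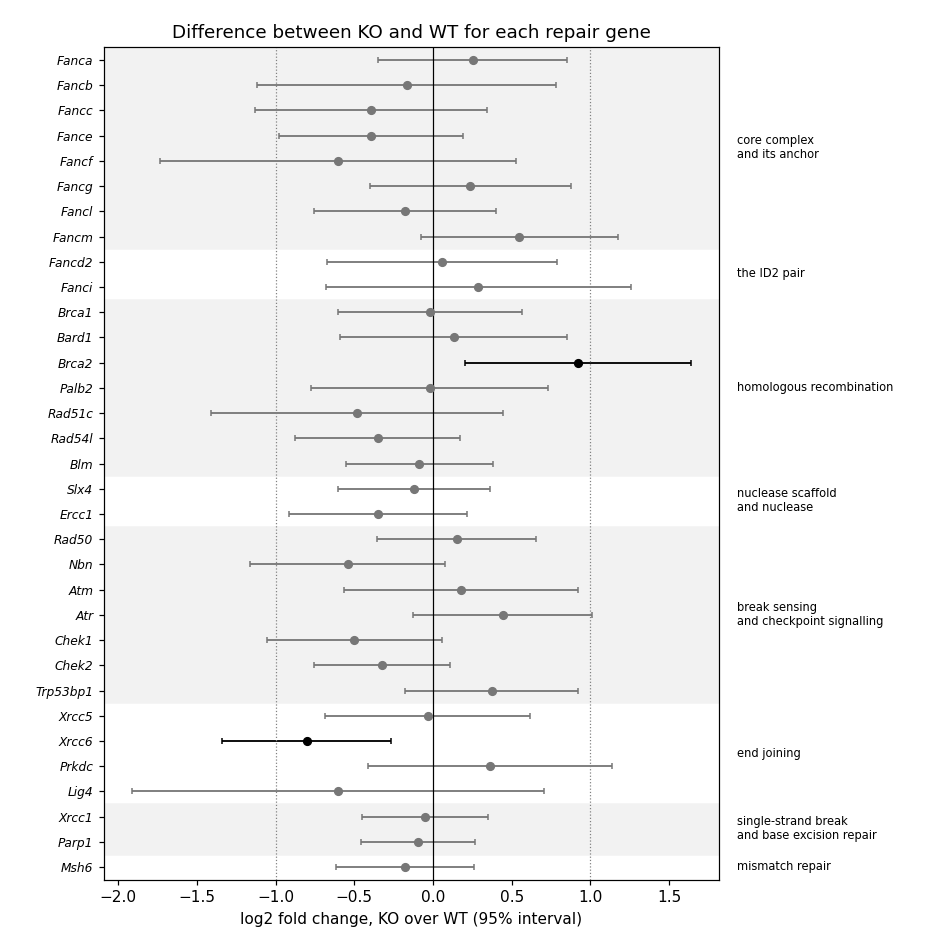
Log2 fold change of KO over WT for each of the 33 repair genes (x axis, points) with its 95% interval (bars), by pathway group (right), with dotted lines at 2-fold. The intervals of Brca2 (0.21 to 1.64) and Xrcc6 (-1.34 to -0.26), in black, leave out 0, and the other 31, in grey, include it.

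Brca2, a central gene of homologous recombination, was the only repair gene whose KO libraries all lay above the WT libraries. Its KO libraries ranged from 32.5 to 42.4 CPM with a median of 36.1, and the WT libraries, replicates 1 to 4, had 30.2, 19.3, 21.1 and 6.79 CPM. The groups did not overlap, the KO libraries were tightly grouped, and WT replicate 4 was far below the other 3. Complete separation with KO above occurred in 2.88% of all genes, and 1 of the 33. The log2 fold change was 0.92 ± 0.33 (SE), which did not pass by edgeR's quasi-likelihood test (adjusted p = 0.166). Without WT replicate 4 it was 0.64, with the number of genes detected in each library as a covariate 0.37, and with offsets for transcript length 0.64. The gene lies on chromosome 5 (150522630 to 150570329, plus strand, GRCm38).

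Xrcc6, which encodes Ku70, the DNA-end-binding subunit that starts end joining, was at the other extreme. Its KO libraries ranged from 81.9 to 128 CPM with a median of 95.02, and the WT libraries had 291, 127, 133 and 146 CPM. 5 of 6 KO libraries lay below every WT library, the sixth overlapped the lowest WT library by less than 1 CPM, and WT replicate 1 stood apart at the top. The log2 fold change was -0.80 ± 0.25 (SE, edgeR adjusted p = 0.118), and without WT replicate 1 it was -0.44. Separation with every KO library below every WT library occurred in 3.48% of all genes and in 0 of the 33. The gene lies on chromosome 15 (81987835 to 82040085, plus strand, GRCm38) in the Gencode annotation. The RefSeq start used for its promoter window below falls inside that span.

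The promoters of these extremes, in each direction the gene with the smallest p, are shown as the 250 bases before the RefSeq start (GRCm38.p6, both on the plus strand), Brca2 at chr5:150522371-150522620 and Xrcc6 at chr15:82016119-82016368, with the motifs searched for in capitals.
Brca2: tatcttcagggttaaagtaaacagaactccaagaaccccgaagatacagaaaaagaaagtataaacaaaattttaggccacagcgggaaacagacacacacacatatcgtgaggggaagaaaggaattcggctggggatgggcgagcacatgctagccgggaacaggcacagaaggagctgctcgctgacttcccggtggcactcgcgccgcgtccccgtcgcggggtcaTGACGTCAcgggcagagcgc
Xrcc6: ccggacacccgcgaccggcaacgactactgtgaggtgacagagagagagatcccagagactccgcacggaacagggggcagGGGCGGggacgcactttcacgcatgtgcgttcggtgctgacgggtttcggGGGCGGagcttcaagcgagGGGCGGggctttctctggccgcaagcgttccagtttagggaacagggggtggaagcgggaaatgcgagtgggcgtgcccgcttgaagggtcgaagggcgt
The Brca2 window holds 1 palindromic CRE (TGACGTCA, the site of the CREB and ATF factors), and the Xrcc6 window holds 3 GC boxes (GGGCGG, the site of Sp1 factors). On either strand, the CRE was found in 2 of 32 windows of the repair genes (Brca2 and Rad51c) and in 1.55% of 32851 windows of all genes. GC boxes were in 62.5% of the repair gene windows and 32.7% of all windows. The NF-Y box CCAAT was in 50% and 33.8%, and included Fanca, Fancb, Fancc, Fance, Fancf, Fancm and Brca1. The E2F site TTTNGCGC was in 0 of 32 and in 1.13% of all windows, and the CHR element TTTGAA in 1 of 32 (Bard1) and 15.99%. Median GC content was 58.4% in the repair gene windows and 52.4% in all windows. 29 of the 33 genes had at least 1 window, some with more than 1 start, and Fancd2, Rad50, Nbn and Prkdc had none in the table used.

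The levels differed far more between genes than between genotypes. TPM is a scale corrected for transcript length and library size, without the TMM factors used for the fold changes. On it Parp1, the sensor of single-strand breaks, was highest, with 166 ± 31.1 TPM (SD, n = 6) in KO and 155 ± 40.4 TPM (SD, n = 4) in WT. Xrcc1, the scaffold of single-strand break repair, followed with 105 ± 19.4 TPM in KO and 91.9 ± 36.0 in WT. Xrcc6, the checkpoint kinase gene Chek2, the nuclease subunit gene Ercc1 and the core complex gene Fance took ranks 3 to 6 in both groups, Fance at 34.6 ± 6.44 TPM in KO and 32.1 ± 10.6 in WT. Lig4 was lowest in both, with 1.16 ± 0.70 TPM in KO and 1.27 ± 0.97 in WT, and the neighbours just above it (Bard1, Prkdc and Fancb) lay below 2.6 TPM in group mean. Group means in TPM could differ in direction from the fold changes. Those of Parp1, Xrcc1 and Fance were higher in KO at log2 fold changes of -0.10, -0.05 and -0.40. Those of Xrcc6 (-0.80) and Lig4 (-0.60) were lower in KO on both scales. Genotype differences in TPM were not tested. Counting only protein-coding transcripts, a comparison added after seeing the data, kept Parp1 first (118 TPM in WT) and moved Xrcc6 to second place (67.8 TPM) and Msh6 to rank 3 (22.2 TPM), while Brca2 went from rank 15 to rank 33 of 33 in WT. Xrcc1 had 30.1 TPM in KO and 19.8 in WT on that count. Fance had 6.76 TPM in KO (rank 14) and 6.80 in WT (rank 15).

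**Figure D2:**
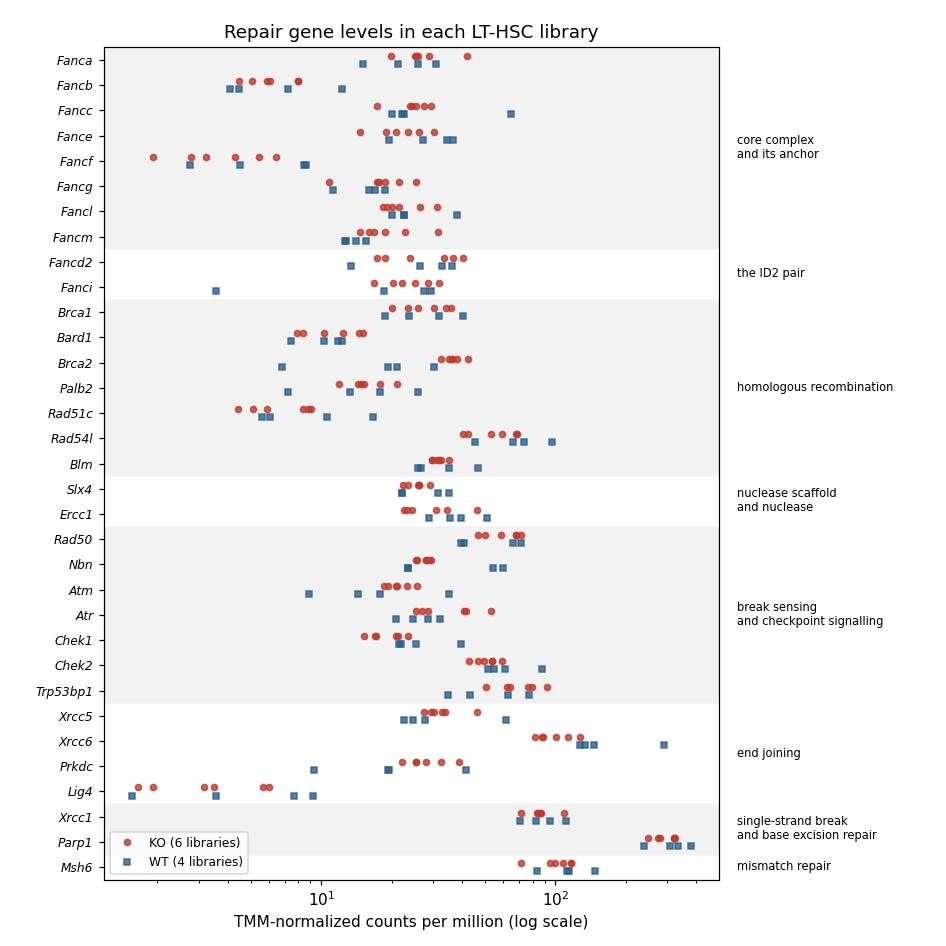
TMM-normalized CPM on a log scale (x axis) for each of the 33 repair genes, grouped by pathway, with each KO library as a circle and each WT library as a square. Brca2 is the gene whose 6 circles all lie to the right of its 4 squares, and WT squares spread wider than KO circles in 28 of 33 genes.

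In the core complex and its anchor, 3 of 8 genes had a positive and 5 a negative log2 fold change, none of which passed. Fancm, the translocase that anchors the complex to DNA, had the smallest p of the group. Its KO libraries ranged from 14.6 to 31.7 CPM with a median of 17.8, and the WT libraries had 14.1, 12.8, 15.6 and 12.6 CPM, so that 5 of 6 KO libraries lay above every WT library (0.55 ± 0.29 SE, edgeR adjusted p = 0.334). KO replicate 3, the highest, also differed in the estimated split of its Fancm counts. Protein-coding transcripts held 34.2% of them, against 90.97% to 99.8% in the other KO libraries. The decay transcript Fancm-207 (7816 bases), close in length to the coding Fancm-201 (7775 bases), held 62.7%. Whether the RNA or the assignment of reads between these transcripts differed was not tested. Counted on protein-coding transcripts alone, KO replicate 3 had 10.8 CPM, below every WT library (12.6 to 15.6 CPM). Fanca (log2 fold change 0.25) and Fancg (0.24), which form a subcomplex of the core, had values above 0. Fancb (-0.17) and the ligase Fancl (-0.18), which sit together in the catalytic module, and Fancc (-0.39), Fance (-0.40) and Fancf (-0.60), which form another subcomplex, had values below 0. Without WT replicate 1, where Fancc reached 64.5 CPM against 20.1 to 22.5 CPM in the other WT libraries, the values of Fancc and Fancb were 0.19 and 0.25.

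In the substrate pair of the core complex, both log2 fold changes were above 0 and neither passed, with 0.29 ± 0.45 (SE) for Fanci and 0.06 for Fancd2. Fanci ranged from 16.9 to 31.99 CPM in KO with a median of 23.7, and the WT libraries had 27.4, 29.5, 18.6 and 3.54 CPM. WT replicate 4 alone lay below the KO range (edgeR adjusted p = 0.784), and without it the fold change of Fanci was -0.06 and that of Fancd2 -0.17. Since the proteins act as a pair, the TPM ratio of Fancd2 to Fanci over all transcripts was also read in each library. It ran from 0.347 to 1.39 over KO libraries and from 0.537 to 5.31 over WT libraries, the highest value again from WT replicate 4. Protein-coding transcripts held 3.41 of 9.96 TPM of Fanci in KO and 1.70 of 5.29 in WT. For Fancd2 they held 5.39 of 7.21 TPM in KO and 3.76 of 5.23 in WT. The ratio on protein-coding transcripts was not read in each library.

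Among the 7 genes of homologous recombination, 2 had a positive log2 fold change (Brca2 and Bard1) and 5 a negative one. Brca1 (-0.02) and its partner Bard1 (0.13), which form a ubiquitin ligase at breaks, and Palb2 (-0.02), which ties Brca1 to Brca2, had intervals reaching from -0.60 to 0.57, from -0.59 to 0.85 and from -0.78 to 0.73. The helicase gene Blm was among the steadiest of the 33 in KO, at 31.7 ± 1.99 CPM (SD, n = 6), and had 33.6 ± 9.75 CPM (SD, n = 4) in WT. Rad54l, which encodes a DNA motor protein, had -0.35 and Rad51c -0.48, the latter at 4.43 to 9.04 CPM in KO and 5.61 to 16.6 CPM in WT. The TPM ratio of Brca2 to Palb2, over all transcripts of each gene, did not overlap between the groups, with 2.75 to 3.96 in KO and 0.91 to 2.15 in WT. Protein-coding transcripts held only 1.87 of 26.7 TPM of Brca2 in KO and 0.42 of 11.3 in WT. For Palb2 they held 2.72 of 8.03 TPM in KO and 2.48 of 6.58 in WT. The ratio on protein-coding transcripts was not read.

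In the pair of nuclease genes, Slx4, the scaffold that gathers nucleases at crosslinks, had a log2 fold change of -0.12, and Ercc1, the partner of the nuclease Xpf, -0.35 ± 0.26 (SE, edgeR adjusted p = 0.506). Ercc1 ranged from 22.5 to 46.5 CPM in KO with a median of 27.7 and had 28.9, 50.9, 39.6 and 35.4 CPM in WT. 3 of 6 KO libraries lay below every WT library and the others lay among them.

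Of the 7 genes of break sensing and checkpoint signalling, 4 had a positive log2 fold change and 3 a negative one. Chek1, the effector kinase of stalled replication, had the smallest p of the group. It ranged from 15.2 to 23.4 CPM in KO with a median of 19.0, and the WT libraries had 39.4, 22.01, 21.5 and 25.5 CPM. 5 of 6 KO libraries lay below every WT library (-0.50 ± 0.26 SE, edgeR adjusted p = 0.317). Atr, the kinase that activates Chek1, had a value of the opposite sign (0.44, interval -0.13 to 1.01). On the arm that answers double-strand breaks, the kinase Atm had 0.18 and its target kinase Chek2 -0.32, and Trp53bp1, which steers breaks toward end joining, had 0.37. Rad50 (0.15) and Nbn (-0.54), subunits of the complex that first binds breaks, differed in spread. Nbn was, with Blm, the most even gene of the 33 in KO, at 27.6 ± 1.74 CPM (SD, n = 6), whereas the WT libraries fell apart into 60.0 and 53.9 CPM for replicates 1 and 4 and 23.4 and 23.5 CPM for replicates 2 and 3.

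Among the 4 genes of end joining, Xrcc6 (above) was accompanied by Xrcc5, which encodes the other Ku subunit, by Prkdc, the kinase that Ku recruits, and by Lig4. Xrcc5 had a log2 fold change of -0.03 and reached 61.7 CPM in WT replicate 1 against 22.5 to 27.7 CPM in the other WT libraries, and without that library its value was 0.42. The TPM ratio of Xrcc6 to Xrcc5, whose proteins work as a dimer, ran from 2.96 to 5.37 in KO libraries and from 5.71 to 7.89 in WT libraries, with no overlap. Prkdc had 0.36 and Lig4 -0.60, with wide intervals. Of the 7 partner ratios read, over all transcripts and chosen as known complexes or kinase pairs, Brca2 to Palb2 and Xrcc6 to Xrcc5 did not overlap. Over all 528 pairs of the 33 genes 2.65% did not, and 13 of those 14 pairs held Brca2 or Xrcc6.

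In single-strand break and mismatch repair the genotypes lay close together. Parp1 ranged from 248 to 326 CPM in KO with a median of 299.7 and had 379, 309, 333 and 238 CPM in WT (log2 fold change -0.10 ± 0.17 SE, edgeR adjusted p = 0.809). Xrcc1 had -0.05, with an interval from -0.45 to 0.35. Msh6, which takes part in recognising mismatched bases, ranged from 71.5 to 116 CPM in KO with a median of 104 and had 148, 114, 83.1 and 112 CPM in WT (-0.18 ± 0.20 SE, edgeR adjusted p = 0.687). In all 3 genes the KO values lay within the WT range except at the low end of Msh6.

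**Figure D3:**
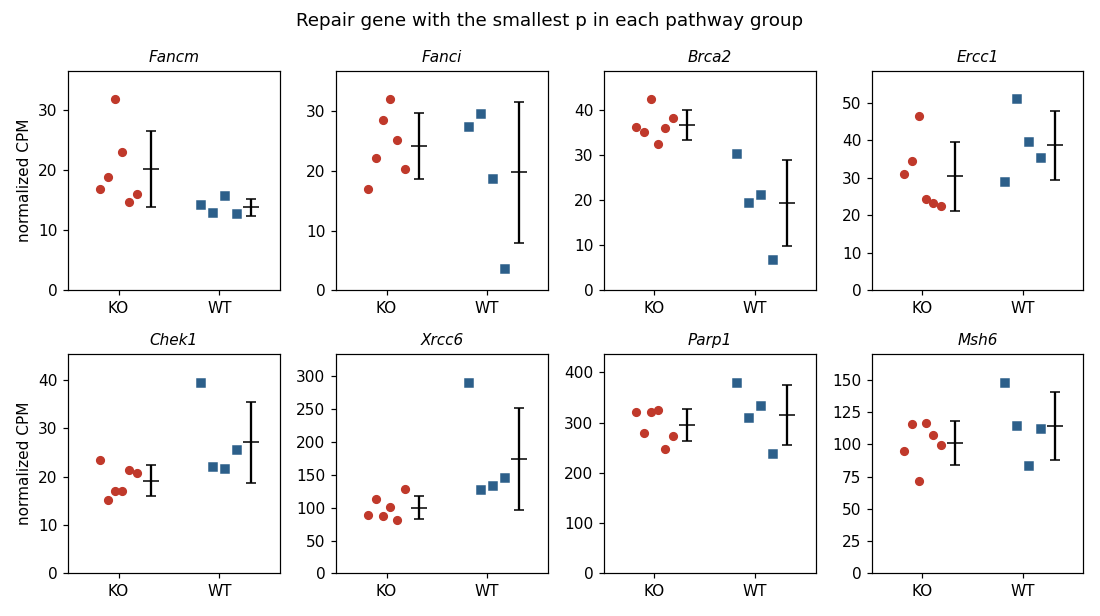
Normalized CPM (y axis, from 0) in each KO library (circles) and WT library (squares) for the repair gene with the smallest p in each of the 8 pathway groups, with the mean and SD of each group beside the points in black. The groups are apart for Brca2 and nearly so for Xrcc6, where WT replicate 1 stands at 291 CPM, and they overlap for Fanci, Ercc1, Parp1 and Msh6.

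The spread within groups was itself uneven. The coefficient of variation was larger in WT than in KO for 28 of 33 repair genes (84.8%), and for 77.0% of the 10311 genes in the same range of CPM. Its median over the 33 genes was 21.2% in KO and 31.8% in WT, against 25.3% and 39.2% for all genes in that range. WT replicate 1 held the highest value of 12 of the 33 genes and WT replicate 4 the lowest of 10, and over all genes in that range these shares were 23.4% and 20.3%. Log2 fold change and mean transcript length were related with a Spearman coefficient of 0.37 over the 33 genes and 0.22 over 15993 genes, a description across genes, which are not replicates. Each of the 6 KO libraries had a positive relation to length over all genes (0.06 to 0.17) and each WT library a negative one (-0.18 to -0.10). With offsets for transcript length the median of the 33 genes was -0.25, and again none passed.

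The wider set of repair genes gave some calls. Of 118 other genes of these pathways and of nucleotide excision repair, translesion synthesis, direct reversal and aldehyde clearance, 117 were tested, and 0 were higher in KO and 6 lower (edgeR's quasi-likelihood test, adjusted p below 0.1), against 1.32% and 2.67% of all genes, with 46 positive and 71 negative values and a median log2 fold change of -0.14. Atrip, the partner through which Atr reaches single-stranded DNA, had 75.6 to 94.2 CPM in KO and 323, 164, 124 and 157 CPM in WT (-1.16 ± 0.24 SE, adjusted p = 0.0824). Tipin, which protects replication forks, had 95.3 to 129 CPM in KO and 132 to 300.3 in WT (-0.81 ± 0.21 SE). In the Fanconi pathway Cenpx, a Fancm-associated histone-fold protein, had 65.2 to 90.9 CPM in KO and 105 to 175 in WT (-0.73 ± 0.19 SE). Usp1, the enzyme that removes ubiquitin from Fancd2, was also lower (-0.73 ± 0.21 SE), as were Rmi2, a partner of Blm (-0.90 ± 0.26 SE), and Brcc3, a subunit of a Brca1-containing complex (-0.83 ± 0.22 SE). The adjusted p of these 6 genes lay between 0.0824 and 0.0994. The next by p were Fen1, Gtf2h5, Rpa2 and Rpa3, with log2 fold changes from -0.89 to -0.56, which did not pass. In 8 of the 117 genes every KO library lay below every WT library and in 1, the end joining factor gene Paxx, above, against 3.48% and 2.88% of all genes. All 6 genes of translesion synthesis had values above 0 and none passed. The 6 calls were lost when any of 6 libraries was left out, KO replicates 1, 2, 4, 5 and 6 or WT replicate 1, under the covariates, and at a threshold of 0.05. In those fits hardly any gene at all was called, as given below, so the loss was not particular to these genes.

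Some genes of the dividing cell were also called lower in KO. Of 20 S-phase genes, 19 had negative values and 3 were lower in KO (median -0.53), where 2.67% of all genes were called lower and 53.1% had positive values. These were Pola2, a subunit of the primase complex (387 to 630 CPM in KO; 1927, 996, 884 and 1145 in WT; -1.34 ± 0.22 SE), Ccne1, the cyclin of the G1 to S step (-1.45 ± 0.28 SE), and Gins1, of the replicative helicase (-0.95 ± 0.24 SE). Of 17 genes of G2 and mitosis, 15 had negative values and 2 were lower (median -0.31), both B-type cyclins, Ccnb1 (-0.90 ± 0.20 SE) and Ccnb2 (-0.74 ± 0.16 SE). Among 18 genes that respond to p53, 11 had positive values and none passed (median 0.27). Cdkn1a, the cell cycle inhibitor most used as a p53 readout, had 22.8 to 76.5 CPM in KO and 9.25, 22.5, 18.3 and 29.3 CPM in WT (1.31 ± 0.40 SE, adjusted p = 0.118), with overlap between the groups. Bax, which promotes cell death, had the opposite sign and did not overlap, with 88.8 to 153 CPM in KO and 158, 155, 187 and 167 CPM in WT (-0.53 ± 0.19 SE, adjusted p = 0.166). The lowest value of the list was that of Gadd45a (-1.02 ± 0.82 SE), and these 3 genes were chosen after their values were seen. The S-phase and G2 calls were lost without the same 6 libraries, in fits where hardly any gene at all was called. The part of the cell cycle in the values of the repair genes was not tested.

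**Figure D4:**
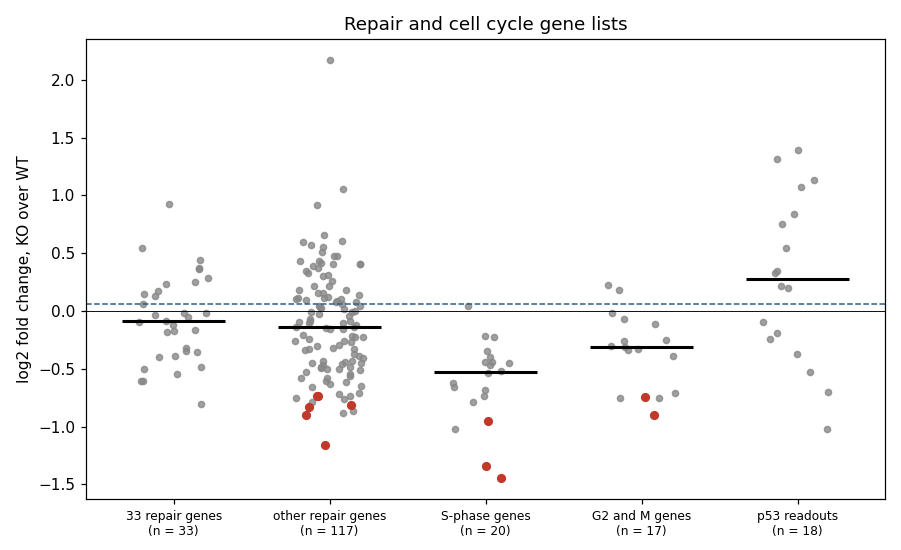
Log2 fold change of KO over WT (y axis) for the 33 repair genes, 117 other repair genes, 20 S-phase genes, 17 genes of G2 and mitosis and 18 p53 readouts, with one point per gene, those with an adjusted p below 0.1 in red and the list median as a bar. The 33 repair genes hold no red point and have a median of -0.09, the S-phase genes have 3 and a median of -0.53, and the dashed line marks the median of all genes, 0.06.

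The transcript tables add a readout that gene totals leave out, the share of a gene's counts on protein-coding rather than on retained-intron, decay or other noncoding transcripts. 7 of the 33 genes have only protein-coding transcripts in the annotation, 3 (Fanci, Brca2 and Rad51c) fell below 50 counts in some library and were not tested, and 23 were tested among 6387 genes with limma. None of the 23 passed, where 3.23% of all genes did, and at an unadjusted p below 0.05 stood 3 of them (17.6% of all genes). Atm had 92.6% to 96.4% in KO and 88.8%, 91.8%, 91.9% and 88.3% in WT (adjusted p = 0.148). These values did not overlap, but how often shares separate in this way over all genes tested was not counted. Trp53bp1 had 39.4% to 60.3% in KO and 42.0%, 50.2%, 21.9% and 11.7% in WT (adjusted p = 0.242). Blm had 70.6% to 90.2% in KO and 94.6%, 86.4%, 96.2% and 83.6% in WT (adjusted p = 0.233). The median over the 23 genes was 79.2% in KO and 83.2% in WT, against 91.4% and 93.7% over all genes tested. Slx4 was the gene with the least coding signal, 7.55% ± 7.07 (SD, n = 6) in KO and 5.45% ± 5.91 (SD, n = 4) in WT, its counts lying on retained-intron and decay transcripts.

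Brca2 is described without a test. Protein-coding transcripts held 28.3% to 45.1% of its counts in KO and 27.9%, 30.1%, 24.5% and 0% in WT, the last from 48 counts, where 3 counts would be 6.25%. The full-length transcript Brca2-210 (10517 bases) took 27.5% of all Brca2 counts and the short noncoding Brca2-206 (1340 bases) 29.8%. On protein-coding transcripts alone Brca2 had 10.2 to 16.8 CPM in KO and 8.42, 5.82, 5.16 and 0 CPM in WT, and on the others 19.3 to 25.9 CPM in KO and 21.8, 13.5, 15.9 and 6.79 CPM in WT. The groups were therefore apart on the coding transcripts, and on the others only WT replicate 1 reached the KO range. These counts are parts of the total counts of Brca2, which was described because its groups did not overlap. How often coding counts separate in this way over all genes was not counted. The protein-coding share itself overlapped between the groups. SmartSeq2 reads carry no strand, and 14 of the 33 genes share at least 3% of their exonic bases with a gene on the opposite strand, for Fancc 18.6%, for Fanci 15.95% and for Xrcc6 7.69%, so that reads there cannot be assigned with certainty. Brca2, Brca1, Atm, Nbn and Xrcc5 share none or under 1%.

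**Figure D5:**
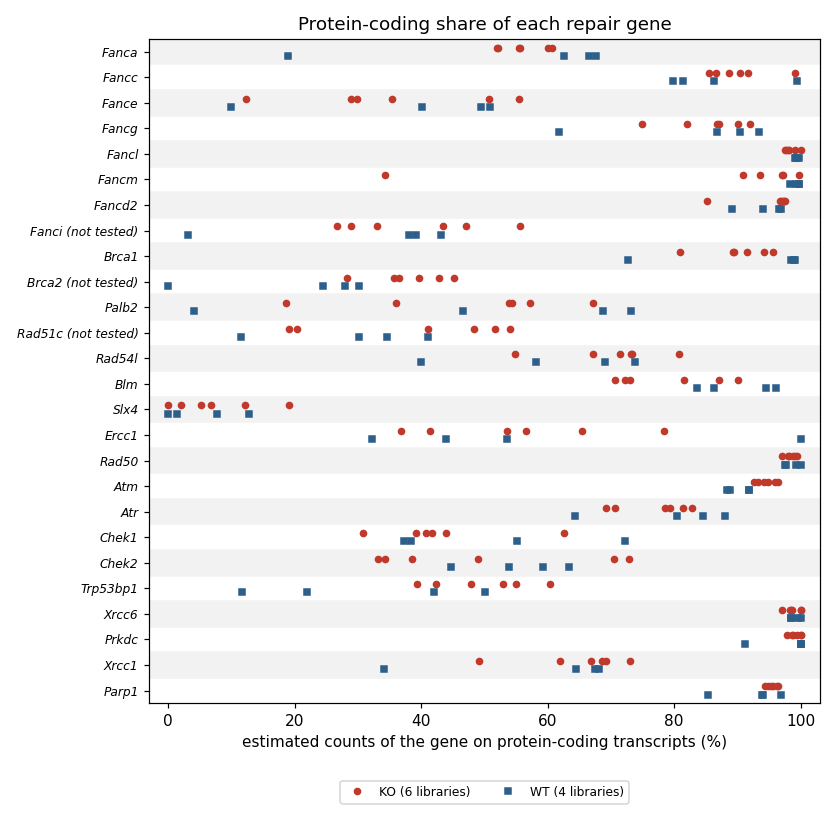
Percent of a gene's estimated counts on protein-coding transcripts (x axis) in each KO library (circles) and WT library (squares) for the 26 repair genes that also have other transcripts. Atm is close to full in both groups with KO above WT, Fancm holds 1 KO library at 34.2%, and Brca2, not tested, lies between 0% and 45.1%.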

How the data were processed

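RNA of sorted LT-HSCs was amplified with SmartSeq2 and sequenced as single-end reads. The authors demultiplexed with bcl2fastq 2.20 and quantified Gencode vM16 transcripts (GRCm38) with Kallisto 0.44.0. They deposited, for each library, estimated counts and TPM per transcript, TPM being scaled by effective length, and a gene table in which the estimated counts were summed per symbol and rounded, without normalization. Transcript sums for the 33 genes were within 1 count of that table. Transcript types and positions came from Gencode vM21 on the same build, which matched 133445 of 133944 transcripts, and promoters from RefSeq (GRCm38.p6).

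Genes whose counts summed to at least 11 were tested with edgeR 4.0.16 (TMM, robust quasi-likelihood) in R 4.3.3, with Benjamini-Hochberg adjustment over 16725 genes and a threshold of 0.1, the filter and threshold following the study. Intervals were derived from the F statistic. Protein-coding shares were tested with limma 3.58.1 on the arcsine square root scale in genes with at least 50 counts in every library. Both tests were tried on simulated data. Alternatives were DESeq2 1.42.0, other scalings, filters, length offsets (loess span 0.3), Xist or the number of genes detected as covariates, and each library left out. Tables were made with Python 3.11.15. The members and lists were chosen with earlier results of these data known. Of the 33 genes, values by library (for KO the lowest, median and highest) are given for any past the threshold, any whose groups do not overlap and the smallest p in each pathway group. Of the other repair genes up to 10 are named, those past the threshold and then by p. Paxx is named besides, as the only one with every KO library above every WT library. H2afx, of the other repair genes, was not analysed here. Reads carry no molecular identifiers, so limits from counts cover counting error only. No 2 libraries were identical (Spearman 0.877 to 0.964 between libraries).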

Additional observations from a re-analysis of the deposited data

Results flagged for a closer look

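In 66 comparisons of a library with the others of its group (33 genes, KO and WT), 5 values stood far from the rest by Dixon's gap test, where chance gives about 1 in 20. In WT replicate 1, Fancc reached 64.5 CPM (next highest 22.5), Xrcc5 61.7 CPM (next highest 27.7) and Xrcc6 291 CPM (next highest 146). Both Ku genes, Xrcc5 and Xrcc6, were thus high in the same library. In WT replicate 3, Fancl reached 37.9 CPM (next highest 22.7). In KO replicate 2, Xrcc5 reached 46.3 CPM (next highest 33.9). WT replicate 1 also had the highest mean log2 deviation of the 33 genes (0.28) and of the S-phase genes (0.81), and its part in these values was not tested.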

How the results depend on the processing

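Under 21 other fits, 10 of them leaving out a library, 0 of the 33 repair genes were called higher or lower in every fit except DESeq2 without a fold-change threshold, which called 1 higher (Brca2, adjusted p = 0.0794) and 1 lower (Xrcc6, adjusted p = 0.0561), and no protein-coding share passed under its alternatives. Over all genes the counts (221 higher, 446 lower) were 0 and 0 at an adjusted p below 0.05, with Xist or the number of genes detected as a covariate, and without KO replicate 1, 2, 5 or 6 or WT replicate 1, and 1 and 0 without KO replicate 4, so that an absent call for a repair gene in those fits says nothing of that gene. 12 of the 33 genes kept the sign of their fold change in all fits, among them Brca2 (0.37 to 1.22) and Xrcc6 (-1.11 to -0.44). For the others the sign of the log2 fold change turned in the fits below, and the cause was not tested. With Xist as a covariate the values were Fancd2 -0.028, Brca1 0.031, Bard1 -0.083, Rad50 -0.051, Xrcc5 0.069 and Xrcc1 0.051. With the number of detected genes as a covariate the values were Fancf 0.22, Fancd2 -0.50, Fanci -0.65, Brca1 0.46, Bard1 -0.085, Rad51c 0.024, Slx4 0.076, Ercc1 0.0074, Atr -0.067 and Xrcc1 0.10. With offsets for transcript length the values were Fancd2 -0.13, Bard1 -0.38, Rad50 -0.15, Atm -0.17, Prkdc -0.25, Xrcc1 0.042 and Parp1 0.017. With transcript sums and length offsets the values were Brca1 0.16, Atm -0.42, Chek2 0.19 and Xrcc5 0.019. Leaving out each library in turn gave ranges across 0 for Fancb (-0.36 to 0.25), Fancc (-0.54 to 0.19), Fancl (-0.28 to 0.12), Fancd2 (-0.17 to 0.22), Fanci (-0.056 to 0.55), Brca1 (-0.17 to 0.19), Palb2 (-0.26 to 0.30), Blm (-0.19 to 0.17), Slx4 (-0.21 to 0.013), Atm (-0.0070 to 0.65), Xrcc5 (-0.19 to 0.42), Xrcc1 (-0.15 to 0.068) and Parp1 (-0.21 to 0.0065).

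For the lists added after seeing the data, the counts of lower genes (6 other repair, 3 S-phase, 2 G2 and mitosis) were 17, 6 and 4 by DESeq2 without a threshold, 0, 0 and 0 under either covariate and at an adjusted p below 0.05, and 0 to 8, 0 to 6 and 0 to 4 over the libraries left out. Other repair genes numbered 3 under upper-quartile factors and 2 with transcript sums, and G2 and mitosis genes 4 under filterByExpr and 4 with length offsets. TPM levels stayed within 1 SD under 396 alternatives that took the median or left out a library, whereas counting only protein-coding transcripts, added after seeing the data, moved 33 of 66 levels by over 1 SD. No paired analysis was possible because replicate numbers were given in accession order and the labels pair no samples. Genes under 10 CPM, such as Lig4 and Fancf, could be resolved only to wide intervals at this depth.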
